A study of Mus musculus with 12 samples.

Results

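Broad domains of the promoter mark H3K4me3 that also carried acetylation were described in a cell line of mouse pancreatic cancer. The domains are regions of the H3K4me3 list of the female KDM6A-WT line that span 5 kb or more, are overlapped by the H3K27ac list of that line by at least 1 bp, and are not overlapped by its H3K27me3 list. Of the 24492 H3K4me3 regions, 3217 met this rule, which is 13.1%. Length, acetylation and the lack of H3K27me3 were thus used to choose the domains and are given below as a description. The readouts outside the rule were 8 further lists: H3K4me1 in KO and WT of either sex, and the antibodies to KDM6A and to MLL4 in KO and WT of the female sex.

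The study used chromatin immunoprecipitation with sequencing on untreated cell lines from mouse pancreatic tumours, kept in F12/DMEM with EGF. KO and WT stand for the labels KDM6A-KO and KDM6A-WT; the cell type label of every library, the WT ones included, speaks of a K6A null tumour, and the genotype field was followed here. Each combination of antibody, sex and genotype had 1 library. H3K4me1 alone was profiled in a female and a male pair of KO and WT lines, and the other differences between lines have no replicate check and were not tested; how many independent lines or clones stand behind a label was not stated. Brackets hold exact 95% intervals over regions, which are not replicates, and cover counting error only. The deposited number per region was taken as its read count, which no header or label states; an unlisted region may still hold reads below a list's threshold. Total reads inside the listed regions were lowest for the MLL4 library of WT, at 108165, and highest for H3K4me3, at 17526099.

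H3K4me3 is laid down at the start of transcribed genes by methyltransferases of the SET1 and MLL families, and in most promoters it stays close to the start site. A minority of promoters carry it over a much longer stretch of the gene; such broad domains are known from many tissues for their link with genes of cell identity and, in normal cells, with tumour suppressor genes. H3K27ac marks promoters and enhancers in use, whereas H3K27me3 is the mark of Polycomb repression. MLL4, also called KMT2D, is the main H3K4 monomethyltransferase of enhancers, and KDM6A, the X-linked demethylase of H3K27me3, is a subunit of its complex. H3K4me1, the mark that MLL4 lays down at enhancers, usually flanks promoters and is low where H3K4me3 is densest, since a lysine holds one methylation state at a time.

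Broad active domains made up a small share of the H3K4me3 regions and a large share of the H3K4me3 reads. They covered 22.6 Mb, or 30.5% of the bases in the H3K4me3 list, and held 39.5% of its reads. Active H3K4me3 regions shorter than 5 kb, chosen by the same marks, numbered 15218, covered 40.0 Mb and held 48.9% of the reads. Lengths of the domains ran from 5000 bp to 34400 bp, with a median of 6200 bp and quartiles of 5400 and 7600 bp. Most domains were therefore close to the minimum: 1369 spanned 5 to 6 kb, 1121 spanned 6 to 8 kb, 396 spanned 8 to 10 kb, and 331 spanned 10 kb or more. Of all 3424 H3K4me3 regions of 5 kb or more, 203 were left out because they overlapped H3K27me3 beside H3K27ac, 2 had H3K27me3 without H3K27ac, and 2 had neither.

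The minimum of 5 kb fell inside a continuous distribution. Exactly 354 domains had a length of 5000 bp, and 377 active regions had the next shorter length, 4800 bp. The first of each along the genome were alike in reads. The domains chr1:4712001-4717000, chr1:9930601-9935600 and chr1:23262001-23267000 held 798, 1854 and 1853 H3K4me3 reads, and the regions chr1:20879601-20884400, chr1:44156201-44161000 and chr1:54979601-54984400, just outside, held 1185, 1499 and 1629.

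Read density, the H3K4me3 reads of a region per kb of its length, rose with length up to about the minimum and not beyond it. The domains had a median of 322 reads per kb, with quartiles of 251 and 386 and a range of 26.8 to 692. Among the active regions under 5 kb the median was 115, with quartiles of 49.3 and 298. By length class, active regions had a median of 47.1 reads per kb under 2 kb, 108 at 2 to 3 kb, 287 at 3 to 4 kb and 318 at 4 to 5 kb. The classes inside the domains gave 336 at 5 to 6 kb, 318 at 6 to 8 kb, 302 at 8 to 10 kb and 292 at 10 kb or more. Across the 15218 shorter regions, length and density went up together, with a Spearman rho of 0.70, and across the 3217 domains rho was -0.12; all these points come from 1 library and share its depth. Beyond 5 kb the longer domains were therefore not the denser ones.

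**Figure D1:**
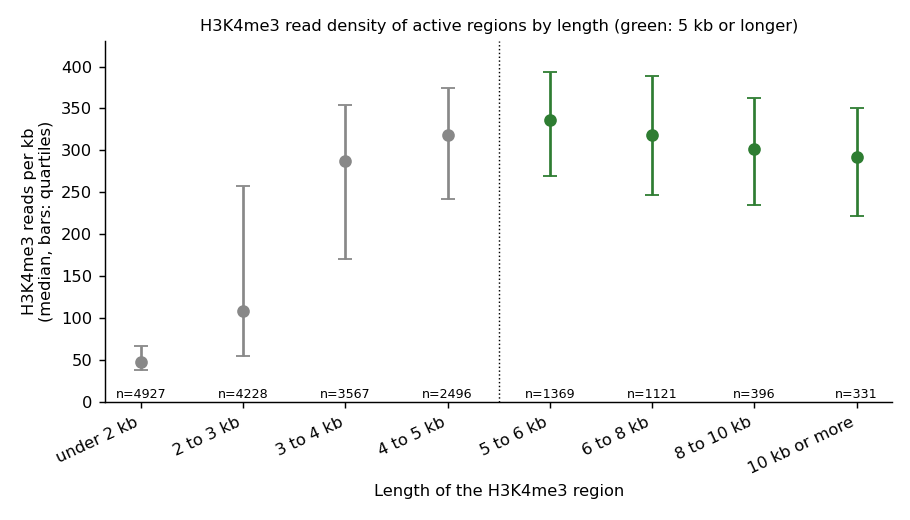
H3K4me3 reads per kb (vertical axis) of active H3K4me3 regions in 8 classes of length (horizontal axis); points are medians, bars run between quartiles, and the dotted line marks 5 kb. The median rose to 318 at 4 to 5 kb and 336 at 5 to 6 kb and was 292 in the class of 10 kb or more.

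Listed H3K27ac regions covered most of each domain's length on average, and the middle more often than the borders. H3K27ac regions covered 90.6% of the bases of the domains, and 1292 domains (40.2%) were covered from border to border. In 10 equal bins from one border to the other, the covered share was 72.9% in bin 1, 98.3% in bin 5 and 73.1% in bin 10. At 2 to 3 kb outside a border it was 23.5%. In 5.81% of the domains the acetylation was split into 2 or more listed regions. The densest H3K27ac region of a domain had a median of 85.5 reads per kb, against 56.2 for the active regions under 5 kb, and its median percentile within the H3K27ac list was 88.1, against 64.2. The presence of H3K27ac belongs to the rule; its density does not, although it comes from the same library. H3K27me3 lay within 5 kb of 265 domains, or 8.24% [7.31 to 9.24], and of 11.2% [10.8 to 11.8] of the shorter active regions. A second H3K4me3 region lay within 1 kb of 333 domains (10.4%), against 7.81% of the shorter active regions.

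H3K4me1 was listed at nearly every domain in each of the 4 lines. The female KO list overlapped 3137 of the 3217 domains, 97.5% [96.9 to 98.0], and the female WT list 3167, 98.4% [98.0 to 98.8]. In the male lines it was 3204 in KO, 99.6% [99.3 to 99.8], and 3174 in WT, 98.7% [98.2 to 99.0]. Among all 24492 H3K4me3 regions the corresponding shares were 77.8% for female KO, 81.1% for female WT, 90.8% for male KO and 82.9% for male WT. The shorter active regions stood between these values, at 85.2% [84.6 to 85.7] in female KO, 87.8% [87.3 to 88.3] in female WT, 94.8% in male KO and 89.8% in male WT. All 4 lists held 3062 domains (95.2%), 128 were in 3 lists, 23 in 2 and 4 in 1. Every one of the 3217 domains was thus in at least 1 of the 4 lists by the 1 bp rule, which says nothing of levels.

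With shares this close to their ceiling, few domains could differ in listing between KO and WT. In the female lines 38 domains (1.18%) had H3K4me1 in KO alone and 68 (2.11%) in WT alone, where the H3K4me3 list as a whole gave 7.82% and 11.2%. In the male lines 41 domains (1.27%) had it in KO alone and 11 (0.342%) in WT alone, against 12.1% and 4.22% for all H3K4me3 regions. Of the domains with H3K4me1 in female WT, 97.9% [97.3 to 98.3] also had it in female KO, and for the male lines the share was 99.7% [99.4 to 99.8]. These shares lie near the 97.5% and 99.6% of all domains that the KO lists overlapped. Shorter active regions, which are less often listed and offer less length, gave 88.5% [87.9 to 89.0] and 95.8% [95.4 to 96.1]. The 203 broad acetylated regions with H3K27me3 gave 88.4% [83.1 to 92.5] in the female and 97.5% [94.2 to 99.2] in the male lines. These shares, too, lie near the 88.2% and 97.5% of all 203 that the female and male KO lists overlapped. The rule sets these regions apart by H3K27me3, and they were also less covered by H3K27ac, at 80.0% of their bases against 90.6% in the domains. The 68 domains listed in female WT alone had a median of 278 H3K4me3 reads per kb, those listed in both female lines 324.

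**Figure D2:**
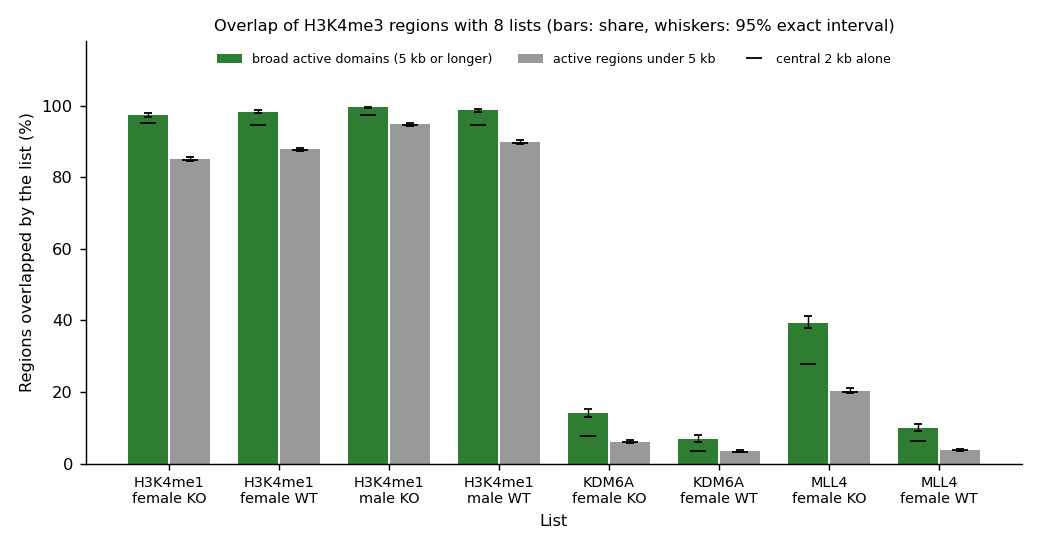
Share of regions overlapped by each of 8 lists (vertical axis, percent), for broad active domains (green, left of each pair) and active H3K4me3 regions under 5 kb (grey); whiskers are exact 95% intervals and short black lines give the share for the central 2 kb alone. H3K4me1 is near its ceiling in the domains, and the MLL4 list of KO, at 39.4% against 20.3%, has the widest gap among the KDM6A and MLL4 lists.

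How much of a domain H3K4me1 covered varied more than whether it was listed. Of the bases in the domains, H3K4me1 covered 83.2% in female KO and 79.8% in female WT, and 87.0% in male KO and 79.7% in male WT. Covered shares were thus higher in KO by 3.36 percentage points in the female and 7.32 in the male lines. Domain by domain, 1651 had more covered in female KO, 950 had more in female WT and 616 had equal shares; the male lines gave 1829, 654 and 734. Over whole lists the order was the other way: H3K4me1 covered 153.5 Mb in female KO and 228.7 Mb in female WT, and 196.6 Mb in male KO and 259.1 Mb in male WT. Shorter active regions also had more covered in KO, by 1.98 points in the female and 10.88 in the male lines, so the direction was not particular to long domains. In domains of 8 kb or more the differences were smaller, 2.15 and 4.40 points. With all 4 H3K4me1 lists cut to the length of the shortest, female KO, they were 9.19 and 13.45 points. This cut left the 35041 regions of female KO whole and shortened the 56076 of female WT, so the female difference could not shrink. In the male pair it removed more regions from WT, which had 64247, than from KO, which had 49780. These 2 values are therefore no balanced check of the difference. Over the 2 pairs of lines the mean difference in coverage, KO minus WT, was 5.34 points, higher in KO in 2 of 2 pairs, with p = 0.5 in a two-sided exact permutation test, the smallest p that 2 pairs allow.

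Across a domain, H3K4me1 was highest near the borders and lowest in the middle, opposite to H3K27ac. In female KO it covered 87.3% of bin 2, 78.1% of bin 5 and 88.4% of bin 9, and in female WT 86.2%, 72.5% and 86.2%. The male KO list gave 93.1%, 79.1% and 93.6%, and the male WT list 85.6%, 71.6% and 86.3%. Outside the domains the order of the genotypes turned round. In the first kb beyond a border H3K4me1 covered 69.0% in female KO and 62.2% in female WT; in the third kb it covered 39.0% and 43.8%, and in the tenth kb 26.9% and 35.1%. The male lines had 73.6% in KO and 65.1% in WT in the first kb, 42.0% and 42.7% in the third, and 29.9% and 33.2% in the tenth. H3K4me1 of the KO lines was thus listed over more of the domain and its edges and over less of the surrounding 10 kb, in either sex. The shorter active regions had the same turn, with 21.9% in female KO and 28.2% in female WT in the tenth kb. Library depth, the threshold of each list and genotype cannot be told apart with 1 library per group. The regions of the female lists held 43.2 reads per kb in KO and 43.5 in WT, and those of the male lists 55.0 and 55.6. These densities were not corrected for depth and do not separate the causes.

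**Figure D3:**
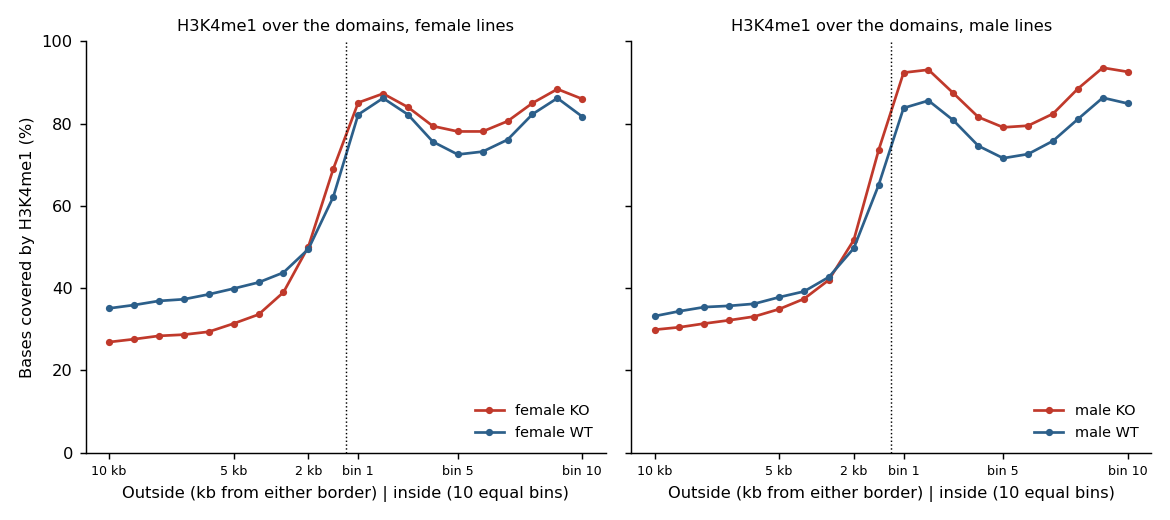
Bases covered by H3K4me1 (vertical axis, percent) outside the broad active domains, by distance from either border, and inside them in 10 equal bins (horizontal axis), for KO (red) and WT (blue) of the female and male lines. In either sex the KO line lies above WT inside the domains, and below it from the third kb outside the border on.

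The low middle took the form of gaps between H3K4me1 regions. A gap inside the domain was present in 1731 domains in female KO, 53.8% [52.1 to 55.5], and in 1827 in female WT, 56.8% [55.1 to 58.5]; male KO had 1943, 60.4% [58.7 to 62.1], and male WT 1827, 56.8% [55.1 to 58.5]. Median gap length was 800 bp in female KO and 1000 bp in female WT, and likewise 800 bp in male KO and 1000 bp in male WT. Between 84.7% and 86.4% of the gaps had their midpoint in the central 50% of the domain, and at least 98.8% of the gap bases were covered by H3K27ac of female WT in each of the 4 lists. In bins 4 to 7, the middle of the domains, H3K27ac covered a similar 97.8% to 98.3%. MLL4 of female KO covered 19.4% to 20.7% of the gap bases. It covered 15.8% to 16.6% of bins 4 to 7 and 13.4% of all domain bases. MLL4 of female WT covered 3.42% of the gap bases of female KO and 3.73% of those of female WT. These values, and those for the gaps of the male lists, lay within the 3.12% to 3.93% of bins 4 to 7. Gaps of one genotype were partly filled in the other. H3K4me1 of female KO covered 45.6% of the gap bases of female WT, and H3K4me1 of female WT covered 29.8% of those of female KO; the male values were 42.1% and 19.2%. Shorter active regions had a gap in 9.89% to 13.9% of cases, and their smaller length leaves less room for one.

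H3K4me1 and the density of H3K4me3 went in opposite directions among the domains. The domains were sorted into 4 classes of equal size by H3K4me3 reads per kb. In the lowest class, up to 251 reads per kb, H3K4me1 covered 86.5% of the bases in female KO, 85.0% in female WT, 91.3% in male KO and 89.2% in male WT. In the highest class, from 386 reads per kb, it covered 77.4%, 74.0%, 81.3% and 70.2% in the same order. The share of domains covered by H3K4me1 from border to border was 51.2% in female KO and 49.1% in female WT in the lowest class, and 11.3% and 8.96% in the highest. Overlap by at least 1 bp went slightly the other way in the female lines, with 95.7% in female KO and 96.3% in female WT in the lowest class and 98.8% and 99.4% in the highest.

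MLL4 was listed at 39.4% [37.8 to 41.2] of the domains in the female KO line and at 10% [9.02 to 11.1] in the female WT line. Of all H3K4me3 regions, 18.7% overlapped MLL4 of KO and 3.80% MLL4 of WT, and of the shorter active regions 20.3% [19.7 to 21.0] and 3.73% [3.43 to 4.04]. Both MLL4 lists held 219 domains, KO alone 1050 (32.6%), WT alone 104 (3.23%) and neither 1844; in the whole H3K4me3 list 16.6% of the regions were in KO alone and 1.67% in WT alone. The KO list of MLL4 is the longer one, with 13152 regions against 2130. With both cut to the same number of regions by reads, 15% of the domains overlapped MLL4 of KO, against 10% in WT. The excess of KO over WT was thus much smaller with lists of equal number. As this cut shortened the KO list alone, the excess could not grow. Depth, threshold and genotype cannot be told apart here.

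Longer domains were more often listed for MLL4. In KO the share was 30.7% [28.2 to 33.2] at 5 to 6 kb, 38.4% [35.5 to 41.3] at 6 to 8 kb, 49.5% [44.5 to 54.5] at 8 to 10 kb and 67.4% [62.0 to 72.4] at 10 kb or more. In WT it was 6.72% [5.45 to 8.18], 9.99% [8.30 to 11.9], 12.4% [9.30 to 16.0] and 21.1% [16.9 to 25.9]. A longer domain offers more bases for an overlap, so the central 2 kb were also compared. There the KO share was 26.5% [24.2 to 28.9], 27.7% [25.1 to 30.4], 27.3% [22.9 to 31.9] and 35% [29.9 to 40.5] in the same 4 classes, against 21.0% [19.4 to 22.7] for active regions of 4 to 5 kb and 18.8% [17.5 to 20.1] for those of 3 to 4 kb. Over all domains the central 2 kb gave 27.9% [26.3 to 29.5] in KO and 6.19% [5.38 to 7.07] in WT, and over the shorter active regions 19.9% [19.2 to 20.5] and 3.71% [3.41 to 4.02]. At the same window length the domains thus kept a higher share than shorter regions in either genotype. Regions under 2 kb are shorter than this window, which then reaches beyond their borders. By bases, MLL4 of KO covered 13.4% of the domains and 10.7% of the shorter regions, and MLL4 of WT 2.84% and 2.04%.

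**Figure D4:**
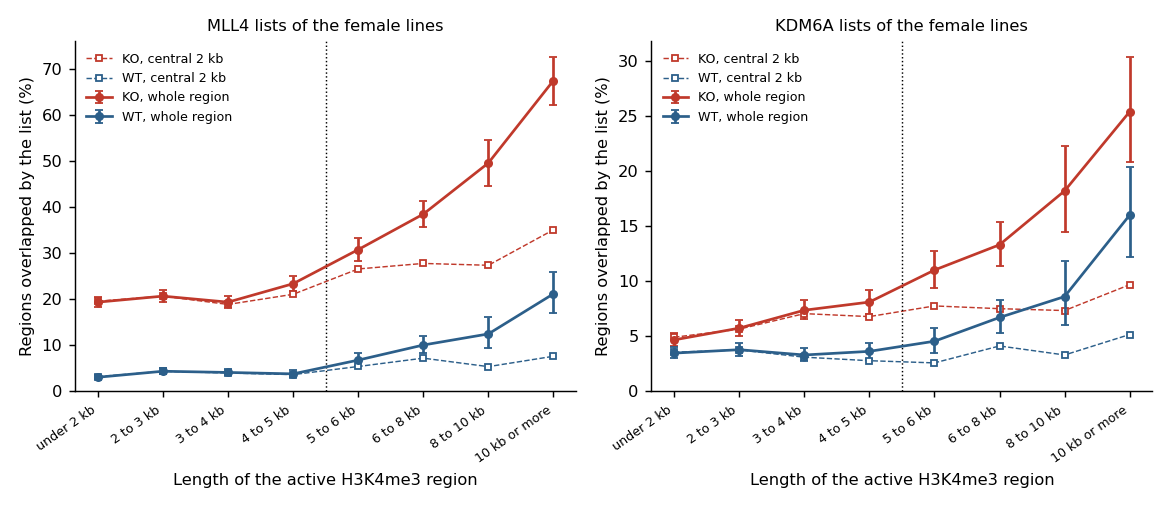
Share of active H3K4me3 regions overlapped by the MLL4 lists (left) and the KDM6A lists (right) of the female KO (red) and WT (blue) lines, by length class (horizontal axis); filled points with exact 95% intervals use the whole region, open points its central 2 kb, and the dotted line marks 5 kb. With the whole region all 4 lists reach their highest share at 10 kb or more, at 67.4% for MLL4 of KO, while the central window gives flatter courses.

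Within a domain MLL4 lay inside rather than at the borders. MLL4 of KO covered 6.56% of bin 1, 16.4% of bin 5 and 6.95% of bin 10, and 2.21% of the first kb outside. MLL4 of WT covered 1.29%, 3.44% and 1.12% of the same bins and 0.373% of the first kb outside. The shorter active regions had the same course over these bins. MLL4 of KO covered 5.39%, 14.8% and 5.50% of them there, and MLL4 of WT 0.961%, 2.86% and 1.13%. At least 2 MLL4 regions lay on 355 domains in KO (11%) and on 23 in WT (0.715%). Among all H3K4me3 regions the shares were 1.97% in KO and 0.102% in WT, but most of those are shorter and offer less length. MLL4 regions on the domains were also more often listed in the other genotype than those elsewhere, and they were longer and held more reads. In KO their medians were 1600 bp and 51 reads, against 1400 bp and 39 reads elsewhere, and in WT 1600 bp and 48 reads, against 1400 bp and 44 reads; the part of length and reads in the sharing was not tested. Of the 1730 KO regions on domains, 12.7% [11.2 to 14.4] were overlapped by a WT region, against 3.56% [3.23 to 3.92] of the 11422 KO regions elsewhere. Of the 347 WT regions on domains, 59.9% [54.6 to 65.1] had a KO region over them, and of the 1783 elsewhere 22.2% [20.2 to 24.2] did. The domains with MLL4 in both genotypes were longer, with a median of 7400 bp against 6000 bp for those with MLL4 in neither, and had fewer H3K4me3 reads per kb, 294 against 324.

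KDM6A was listed at fewer domains than MLL4, and at more domains in the KO line than in the WT line. The KO list overlapped 14.1% [13.0 to 15.4] of the domains and the WT list 6.96% [6.11 to 7.90]; for all H3K4me3 regions the shares were 6.11% and 3.27%, and for the shorter active regions 6.14% [5.77 to 6.54] and 3.52% [3.23 to 3.83]. A line labelled KO should lack the target of the antibody, so the KO list gives the background of this antibody as far as that label holds, and the WT share lay below it. Cut to the same number of regions, the KO list still overlapped 9.36%, against 6.96% in WT. In the central 2 kb the shares were 7.80% [6.90 to 8.78] in KO and 3.45% [2.85 to 4.14] in WT. For the WT list this was close to the 3.36% [3.08 to 3.66] of the shorter active regions in the same window, and the KO list gave 5.91% [5.54 to 6.29] there. In this window of equal length the WT list thus showed no excess at the domains, beyond its interval, over the pooled shorter regions. That pool includes regions under 2 kb, for which the window reaches beyond the borders. Active regions of 4 to 5 kb gave 2.76% [2.16 to 3.49] and those of 3 to 4 kb 3.08% [2.54 to 3.71]. These intervals overlap that of the domains. Over whole regions, the WT share was 4.53% [3.49 to 5.77] at 5 to 6 kb and 16.0% [12.2 to 20.4] at 10 kb or more, while the KO list gave 11% [9.35 to 12.7] and 25.4% [20.8 to 30.4].

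KDM6A of KO and of WT were mostly listed at different domains, as they were in the H3K4me3 list as a whole. Of the 224 domains with KDM6A in WT, 49 also had it in KO, 21.9% [16.6 to 27.9]. Among all H3K4me3 regions it was 147 of 801, a similar 18.4% [15.7 to 21.2]. KDM6A was in KO alone at 406 domains (12.6%) and in WT alone at 175 (5.44%), where the H3K4me3 list as a whole had 5.51% and 2.67%. From the lowest to the highest class of H3K4me3 reads per kb, KDM6A of WT was listed at 9.81% [7.85 to 12.1], 8.21% [6.41 to 10.3], 5.85% [4.33 to 7.70] and 3.98% [2.74 to 5.57], with overlapping intervals between neighbouring classes. The KO list of KDM6A gave 14.4%, 12.8%, 14.4% and 14.9% over the same classes. MLL4 of KO was highest in the lowest class, at 47.0% [43.5 to 50.5], and gave 33.6%, 37.8% and 39.4% [36 to 42.9] in the others; MLL4 of WT gave 13.7% [11.4 to 16.2] and then 8.83% in each of the 3 others.

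KDM6A and MLL4, partners in one complex, were each listed more often at domains with the other than over all domains. In KO, 356 domains had both, which is 78.2% [74.2 to 81.9] of those with KDM6A and 28.1% [25.6 to 30.6] of those with MLL4. In WT, 91 domains had both, 40.6% [34.1 to 47.4] of those with KDM6A and 28.2% [23.3 to 33.4] of those with MLL4. Over all domains MLL4 was listed at 39.4% in KO and 10% in WT, and KDM6A at 14.1% and 6.96%. The shares of KDM6A and of MLL4 domains in a line divide one count by different totals. The difference between them therefore follows from list size. The whole H3K4me3 list gave 67.3% [64.8 to 69.6] and 22.0% [20.8 to 23.2] in KO, and 33.1% [29.8 to 36.5] and 28.5% [25.6 to 31.5] in WT. The high share in KO includes KDM6A regions of a line labelled as lacking KDM6A. Domains with both were longer than those with neither, with medians of 7000 against 6000 bp in KO and 7600 against 6000 bp in WT. The part of length and chromosome in the joint listing was not tested. Counting the 4 KDM6A and MLL4 lists together, 1681 domains (52.3%) were in none, 960 in 1, 439 in 2, 115 in 3 and 22 in all 4. Median length was 6000 bp for domains in none and 10000 bp for the 22 domains in all 4, and H3K4me3 reads per kb were 325 and 204.

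The KDM6A and MLL4 shares differed between chromosomes, and differently in the KO and the WT line. On chromosomes 1, 6 and 17, MLL4 of KO was listed at 71.1% [67.2 to 74.8] of 574 domains and KDM6A of KO at 38.7% [34.7 to 42.8]. On chromosomes 15 and 19, MLL4 of WT was listed at 22.5% [18.1 to 27.5] of 324 domains and KDM6A of WT at 20.4% [16.1 to 25.2]. The 2319 domains on the other 15 chromosomes gave 32.9% [30.9 to 34.8] for MLL4 of KO and 8.54% [7.43 to 9.75] for MLL4 of WT, and for KDM6A 8.80% [7.68 to 10] in KO and 5.52% [4.63 to 6.53] in WT. Chromosomes 1, 6, 15, 17 and 19 were set apart because earlier results of these data gave a surplus of listed regions there, so high shares on them are no separate result. The pattern was not particular to the domains. On chromosomes 1, 6 and 17 the shorter active regions gave 42.6% for MLL4 of KO and 17.8% for KDM6A of KO. On chromosomes 15 and 19 they gave 10.1% for MLL4 of WT and 9.42% for KDM6A of WT. These groups do not separate the chromosomes by share: MLL4 of KO was listed at 55.7% of the domains on chromosome 14, beside 56.6% on chromosome 17. MLL4 of WT was listed at 17.9% on chromosome 4, against 29.4% on chromosome 15 and 13.9% on chromosome 19. On the other 15 the shorter active regions gave 16.3% [15.6 to 16.9] for MLL4 of KO and 3.27% [2.96 to 3.61] for MLL4 of WT. For KDM6A they gave 3.86% in KO and 2.98% in WT. Over whole regions the domains were thus above the shorter regions there too, but they offer more length for an overlap. A window of equal length was not used for this comparison. Genotype and chromosome pattern cannot be told apart with 1 line per genotype. The domains themselves were unevenly spread: they made up 18.9% of the H3K4me3 regions on chromosome 19 and 17.5% on chromosome 15, but 8.39% on chromosome 16 and 7.57% on the X chromosome. Median H3K4me3 reads per kb of the domains ran from 218 on X and 256 on chromosome 4 to 354 on chromosome 19 and 358 on chromosome 17.

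**Figure D5:**
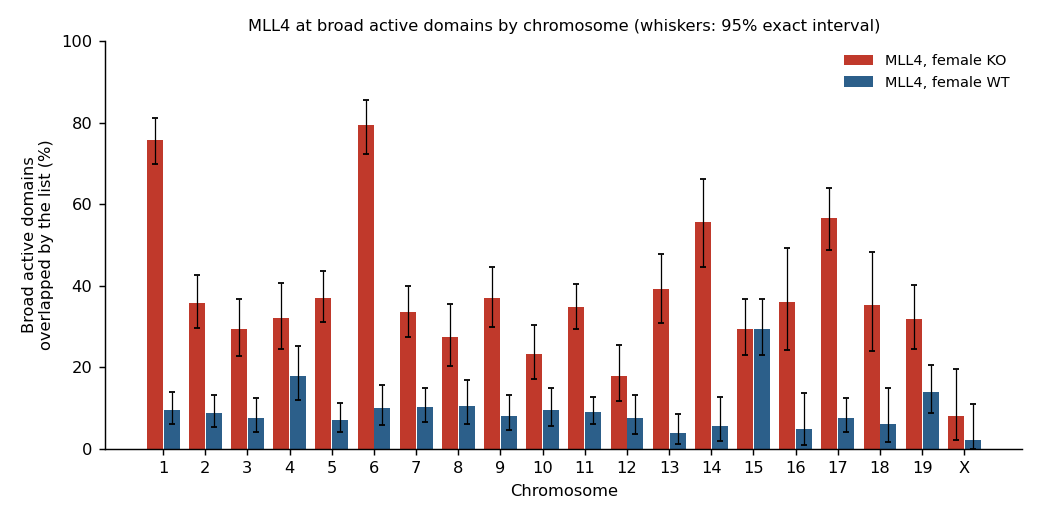
Share of broad active domains overlapped by the MLL4 lists of the female KO (red, left of each pair) and WT (blue) lines on each chromosome, with exact 95% intervals. KO is highest on chromosomes 6 (79.5%) and 1 (75.8%), and WT on chromosome 15 (29.4%), where the KO share is the same.

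The longest domains showed how differently long stretches of H3K4me3 can be built. The longest, chr2:115870801-115905200, spanned 34.4 kb with 9186 H3K4me3 reads, 267 per kb. H3K4me1 covered 75.6% of it in female KO and 60.5% in female WT, and 70.3% in male KO and 58.1% in male WT. MLL4 had 1 region on it in either genotype, with 45 reads in KO and 40 in WT, and KDM6A had none. The domain chr11:86387801-86419400, of 31.6 kb, had fewer H3K4me3 reads per kb, 189.7, and lay in the H3K27ac region with the most reads of that list, 12660. It had 5 MLL4 regions in KO, covering 58.2% of its bases, and 1 in WT, covering 6.96%; KDM6A had 2 regions in KO and none in WT. The domain chr2:152626601-152658200, also of 31.6 kb, was covered by H3K4me1 to 91.8% in female KO and 93.7% in female WT and had 5 MLL4 regions in KO and 1 in WT. Next came chr17:6958001-6989400 with 9976 H3K4me3 reads, 318 per kb, 2 MLL4 regions in KO and none in WT. Single values of one domain rest on 1 library each.

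Of the 10 longest domains, the one on chromosome 15 had the widest gap between the female lines in H3K4me1. On chr15:85493401-85519200, of 25.8 kb and 333 H3K4me3 reads per kb, H3K4me1 covered 35.7% in female KO and 72.1% in female WT; the male lines gave 91.5% in KO and 68.2% in WT. MLL4 had 1 region on it in KO and 2 in WT, covering 6.98% and 23.3%, and KDM6A also had 1 in KO and 2 in WT. H3K4me1 listing in the female lines also differed by chromosome. On chromosomes 15 and 19 the shorter active regions had it at 80.1% in KO and 93.1% in WT, against 85.4% and 87.3% on the other 15. The domains gave 96.3% and 99.1%, against 97.6% and 98.4%. The part of the chromosome in the gap at this domain was not tested. The domain chr19:38095001-38119000, of 24.0 kb and 201 H3K4me3 reads per kb, was wholly covered by H3K4me1 in female KO, female WT and male WT and to 97.5% in male KO. MLL4 covered 71.7% of it in KO with 4 regions and 49.2% in WT with 3 regions, and KDM6A had 1 region in KO and 2 in WT. All of the 10 longest domains had MLL4 in KO, beside 67.4% of the domains of 10 kb or more and 39.4% of all domains. Of all H3K4me3 regions 18.7% had it. Domains this long offer more bases for an overlap by 1 bp, and MLL4 of KO covered from 4.07% to 71.7% of them. H3K4me3 of these 10 ran from 189.7 to 333 reads per kb. The domain chr19:5827601-5852800, of 25.2 kb, held the MLL4 region with the most reads among all domains in KO, 384, and a WT region of 309 reads.

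The densest domains were only in part covered by H3K4me1, and most of the sparsest were covered nearly whole. The 5 densest ran from 589 to 692 reads per kb and from 5 to 6.80 kb. The densest, chr3:52070801-52075800, held 3462 reads in 5 kb; H3K4me1 covered 64.0% of it in female KO, 80.0% in female WT, 52% in male KO and 32% in male WT, and neither MLL4 nor KDM6A was listed there. On chr5:3340001-3346800, with 633 reads per kb, H3K4me1 covered 61.8% in female KO, 41.2% in female WT, 52.9% in male KO and 47.1% in male WT. Over all 5, coverage ran from 23.5% to 91.2% in female KO and from 41.2% to 80% in female WT. The 5 sparsest ran from 26.8 to 33.5 reads per kb, with coverage from 59.3% in female KO and from 81.5% in female WT up to the whole domain. The sparsest, chr7:72499401-72506200, held 182 reads in 6.80 kb and was wholly covered by H3K4me1 in all 4 lines and by H3K27ac. The next, chr6:37347401-37354200 with 198 reads, was likewise wholly covered in all 4 lines, and MLL4 of KO covered 55.9% of it with 185 reads. Whether a promoter lies in these sparse domains was not tested.

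The domains with the most reads of MLL4 in KO or KDM6A in WT ranged widely in H3K4me3, from 84.0 to 618 reads per kb. For MLL4 of KO, chr15:61362401-61368400 came second with 317 reads. It had 84.0 H3K4me3 reads per kb over 6 kb, MLL4 covered the whole of it in KO and 86.7% in WT, and KDM6A 73.3% in KO and 30.0% in WT. On chr6:148890201-148896600, with 458 H3K4me3 reads per kb, MLL4 covered 96.9% in KO with 295 reads and 31.2% in WT with 46 reads, and KDM6A covered 87.5% in KO with no region in WT. For KDM6A of WT the leading 5 domains all lay on chromosomes 15 and 19. These chromosomes held 66 of the 224 domains with KDM6A of WT, which was listed at 20.4% of their domains against 5.52% on the other 15. They were set apart for an earlier surplus in these data, so this placing is no separate result. The first of the 5, chr19:29322801-29329800, had no KDM6A region in KO and one of 243 reads in WT, over 88.6% of its 7 kb. It had 469 H3K4me3 reads per kb and a WT MLL4 region of 38 reads. The domain chr15:81685401-81692200, also among the 5 densest in H3K4me3 at 618 reads per kb, had no KDM6A region in KO and one of 190 reads in WT. MLL4 covered 17.6% of it in KO and 52.9% in WT, and H3K4me1 covered 23.5% in female KO and 76.5% in female WT, against 82.4% in male KO and 44.1% in male WT. As for the longer domain on chromosome 15 above, the part of the chromosome in the female difference was not tested. On chr19:20477001-20483000, with 102 H3K4me3 reads per kb, KDM6A had no region in KO and covered 73.3% in WT with 182 reads, and MLL4 covered 70% of it in KO and the whole of it in WT.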

How the data were processed

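The submitters' processing notes name the build mm9 and the tools SICER 1 and Bowtie 1.1.2 without their roles; no other step is stated. The counts deposited by the authors, 1 whole number per region beside its chromosome, start and end, were read here as unscaled reads per region, judged from the values, since no header or label names them. All borders lay on steps of 200 bp, which limits the precision of every length. Lists were called per library. The control library, thresholds and mapped reads are not given in the sources used here, so an unlisted region may hold signal. Where read counts or densities of different lists stand side by side, they were not corrected for depth.

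The domains and alternatives were chosen with earlier results of these data known. An overlap needed at least 1 bp. Shares carry exact Clopper-Pearson 95% intervals. With 1 library per group no test between libraries was made, except for H3K4me1. Its overlap and coverage measures, KO against WT, had two-sided exact permutation tests over the female and male pairs of lines. These tests were added after seeing the data. Named domains were the 10 longest, the 5 densest and sparsest in H3K4me3, the 5 with the most MLL4 reads in KO and KDM6A reads in WT, and 3 on either side of the minimum length; the text gives some of them. Positions count from 1 in mm9. The gene and promoter tables at hand describe GRCm38, so no gene or sequence was assigned. The input library, labelled IgG in its antibody field, was not analysed here. Python 3.11.15, numpy 2.4.6, pandas 2.3.3, scipy 1.17.1 and matplotlib 3.10.9 were used; overlaps were tested on simulated regions and checked against bedtools 2.31.1.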

Additional observations from a re-analysis of the deposited data

Results flagged for a closer look

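The share of domains overlapped by H3K4me1 differed between KO and WT in opposite directions in the 2 sexes. The difference, KO minus WT, was -0.93 percentage points in the female lines (97.5% in KO and 98.4% in WT) and 0.93 in the male lines (99.6% in KO and 98.7% in WT). With 1 library per group the difference between the sexes was not tested. In the female lines the order turned when at least 50% of a domain had to be covered, with 92.8% in KO and 90.7% in WT, in the central 2 kb, with 95.1% in KO and 94.5% in WT, and after equalising list sizes, with 97.5% in KO and 94.4% in WT. Equalising shortened the female WT list and left female KO whole, so in that setting only the WT share could fall. The covered share of the domains, the share covered from border to border and the share covered to less than 50% went the same way in either sex.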

How the results depend on the processing

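Of 96 values under an alternative, 36 stayed within the 95% interval of the reported value or, for the number of domains and the coverage differences, within 1.5 times of it; 60 moved and none changed direction. The direction refers to H3K4me1 coverage, KO minus WT, whose alternatives were chosen after seeing the data and stayed above 0 in either sex. With lists of equal number the female difference could not fall, as female WT was cut and female KO was not. A share has no direction of its own. With at least 50% of a domain covered, H3K4me1 was listed at 92.8% of the domains in female KO, 90.7% in female WT, 97.5% in male KO and 90.1% in male WT, KDM6A at 1.71% in KO and 0.373% in WT, and MLL4 at 6.99% in KO and 0.777% in WT; of domains with H3K4me1 in WT, 94.6% had it in KO in the female and 98.3% in the male lines. The central 2 kb gave 95.1%, 94.5%, 97.5% and 94.6% for H3K4me1 in the same order, 7.80% and 3.45% for KDM6A, 27.9% and 6.19% for MLL4, and 96.3% and 98.8% of WT domains kept in KO. The upper 50% of each list by reads gave 90.5%, 90.6%, 96.5% and 89.8%, 9.51% and 4.26%, 29.3% and 5.94%, and 92.7% and 97.7%. Lists cut to the shortest of their antibody gave 94.4% for female WT, 98.9% for male KO and 92.0% for male WT, 9.36% for KDM6A of KO and 15% for MLL4 of KO, and H3K4me1 coverage differences of 9.19 and 13.45 points. A minimum of 4 kb gave 5713 domains, with 97.4% for H3K4me1 of female WT and 96.7% of male WT, 11.5% and 5.50% for KDM6A, and 32.4% and 7.28% for MLL4 in KO and WT. A minimum of 8 kb gave 727 domains, 299 H3K4me3 reads per kb, 98.9% for female WT and 99.6% for male WT, 21.5% and 12.0% for KDM6A, 57.6% and 16.4% for MLL4, and coverage differences of 2.15 and 4.40 points. Without chromosomes 1, 6, 15, 17 and 19 the domains had 313 H3K4me3 reads per kb, with KDM6A at 8.80% in KO and 5.52% in WT and MLL4 at 32.9% and 8.54%. Merging H3K4me3 regions within 1 kb gave 305 reads per kb. Requiring 50% coverage by H3K27ac, no H3K27me3 within 5 kb, or the upper 50% of both lists kept the number of domains within 1.5 times. Stricter overlap, shorter windows and shorter lists lower shares by construction; for other changes the cause was not tested. No paired analysis was possible because, by replicate number, each group held 1 library, and none could be left out; for H3K4me1 the female and male pairs of lines were tested, and 2 pairs cannot go below an exact p of 0.5. Mapped reads are unknown, so how depth limits each list was not tested.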
